A study of Mus musculus with 11 samples.

Results

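The 8 genes Acr, Acrbp, Zpbp, Zpbp2, Spaca1, Acrv1, Zp3r and Izumo1 encode proteins of the acrosome, the secretory vesicle that caps the sperm head. They were taken by symbol from the 20389 gene rows of a UMI table (unique molecular identifiers, tags that mark single captured mRNA molecules), and all 8 were found. The table holds single cells of adult mouse testis profiled by SORT-Seq, a plate method that counts the 3′ ends of polyadenylated RNA of sorted single cells. All cells were live and positive for Dazl-GFP, a green fluorescent reporter of the germ cell gene Dazl. They came from 3 untreated reporter mice, for which no strain, exact age or further allele is given in the sources used here. Mouse 1 gave 8 libraries made with CEL-Seq1, mouse 2 gave 1 and mouse 3 gave 2 with CEL-Seq2, so that mouse 1 and the protocol cannot be told apart. The 2 libraries of mouse 3 were plate 8, sorted by a gate, and plate 10, index-sorted like the plates of mice 1 and 2.

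The acrosome forms from Golgi-derived vesicles in round spermatids, the haploid cells that follow meiosis, and its contents are released when the sperm meets the egg coat. Many of its genes are transcribed earlier, in the long pachytene stage of the first meiotic prophase, and the mRNA can be kept for later translation. The cells were therefore ordered from spermatogonia, the dividing cells before meiosis, through leptotene and zygotene to pachytene, and the onset and peak of each gene were read along that order.

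Wells with at least 1000 nuclear UMIs were kept, 1448 of 1920 wells, with a median of 16275 UMIs per cell in mouse 1, 9830 in mouse 2 and 14132.5 in mouse 3. No well was shared between libraries. Of these cells 1191 fell into 11 ordered stages, made from odd-numbered autosomes without any gene named here as a member of a list. Stage 1 was undifferentiated spermatogonia-like, stages 2 and 3 differentiating spermatogonia-like, stage 4 preleptotene-like, stages 6 to 9 leptotene and zygotene-like, and stage 11 pachytene-like. Stages 5 and 10 were left unnamed. Even so, the 9 preleptotene markers were most abundant in the unnamed stage 5, with a mean of 6124 UMIs per 1000000. In stage 4, which carries their name, the mean was 2851. The 17 pachytene markers summed to 5231 ± 1297 UMIs per 1000000 (SD, n = 3 mice) at stage 9, 9238 ± 1971 at stage 10 and 10211 ± 2284 at stage 11. In stage 8 these pachytene markers averaged only 2400, so the name of stage 9 does not exclude pachytene cells there. A further 227 cells lay in 3 clusters of low depth, and 30 cells in a cluster led by protamine genes, the genes of sperm DNA packaging. Levels are UMIs per 1000000 nuclear UMIs (CPM) of the summed cells of a mouse and stage, 16 to 63 cells per sum. Because the assay counts 1 end per molecule, CPM are not divided by gene length.

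The label of an acrosome gene transcribed before the spermatid stage held for Acr, Acrbp, Zpbp and Zpbp2, and for Spaca1 in an earlier window. It was not borne out for Acrv1, Izumo1 and Zp3r, which gave 27, 60 and 7 UMIs over all 11 stages together. Some RNA of spermatid genes was counted in every stage. The summed level of Prm1, Prm2, Tnp1 and Tnp2 was 30.4 ± 20.5 CPM at stage 1 and 29.0 ± 3.22 at stage 11 (SD, n = 3). It was higher in between, with 113 ± 42.6 CPM at stage 5, 126 ± 79.0 at stage 6, 195 ± 230 at stage 7, where mouse 3 had 460, and 92.5 ± 116 at stage 9, where mouse 3 had 226. The 12 elongating spermatid markers summed to 189, 164 and 256 CPM at stages 5, 6 and 7, and to 51.0 ± 5.95 at stage 11. Without the 21 stage cells in which protamine and transition protein UMIs exceeded 0.1%, the calls of all 5 genes tested between stages 11 and 1 were kept. Stages 1 and 11 had the lowest mean of this RNA, so that comparison does not check the stages between. Some onsets moved in the same run, as given below. Of 12 round spermatid markers, 11 had a UMI at stage 11 and Catsper4 had none. They summed to 224 ± 16.6 CPM there, ranging from 208 to 241 over the mice, of which Lrrc34 alone gave 195 ± 17.0. At stage 1 they summed to 28.6 ± 8.59 CPM, with a range of 20.7 to 37.8. Their part in the rise of the acrosome genes was not tested.

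The region just before the start of the genes is shown for those with letters known from factors of late male germ cells. Such factors are CREM, which binds the element TGACGTCA and its shorter forms TGACGT and TGACG, MYBL1, searched as CAACTG, and RFX proteins, searched as GTTGCC. The short forms lie within the long one and were searched on both strands, in the 250 bases before each RefSeq start on GRCm38.p6. RefSeq's promoter table matched 7 of the 8 genes, all but Acr. For Acrbp and Spaca1 the letters fall where GENCODE vM21 draws the 5′ UTR of a longer transcript, so only 30 bases are printed. Capitals mark the searched letters. Acrbp (chr6:125049897-125049926, plus strand), with TGACGT beginning 18 bases before the start, Spaca1 (chr4:34050113-34050142, minus strand), with TGACG in a pair beginning 69 and 59 bases before it, Zpbp2 (chr11:98550847-98551096, plus strand), with TGACG on the opposite strand and CAACTG, and Izumo1 (chr7:45621561-45621810, plus strand), with the whole element, read as follows.
Acrbp: cctcaccttctgTGACGTagcagccgcgcc
Spaca1: gaatggggTGACGcgcggTGACGcctcaat
Zpbp2: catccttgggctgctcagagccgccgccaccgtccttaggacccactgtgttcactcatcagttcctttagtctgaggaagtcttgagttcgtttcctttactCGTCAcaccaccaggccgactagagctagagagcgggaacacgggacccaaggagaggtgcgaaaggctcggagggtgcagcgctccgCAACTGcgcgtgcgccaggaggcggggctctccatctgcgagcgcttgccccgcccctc
Izumo1: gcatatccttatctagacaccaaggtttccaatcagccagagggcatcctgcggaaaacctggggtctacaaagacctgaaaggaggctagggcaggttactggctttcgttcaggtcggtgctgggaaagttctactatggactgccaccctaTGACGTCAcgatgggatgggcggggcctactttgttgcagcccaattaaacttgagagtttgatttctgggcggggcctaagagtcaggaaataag

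The windows of Zpbp, Acrv1 and Zp3r held none of these letters. That of Acrbp also held GTTGCC on the opposite strand, 199 bases before the start. Of 32536 RefSeq windows of the same length, 1.56% held TGACGTCA, 6.50% TGACGT, 17.9% TGACG, 11.1% CAACTG and 10.3% GTTGCC. A match describes letters and is no evidence of binding.

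Acr (chromosome 15, 89568326 to 89574585, plus strand, GRCm38) encodes the proenzyme of acrosin, the main serine protease of the acrosomal matrix. It had 9.73, 16.5 and 42.6 CPM at stage 1 in mice 1, 2 and 3, and 34.6, 9.35 and 62.8 at stage 8. At stage 9 it had 89.1, 88.2 and 127 CPM, at stage 10 183, 149 and 205, and at stage 11 221, 181 and 263. Each mouse was thus higher at stage 9 than at any earlier stage, and the mice of stages 8 and 9 did not overlap. The plates of mouse 3 differed in this step, as given below. The mean went from 22.9 ± 17.4 (SD, n = 3) at stage 1 to 222 ± 40.7 at stage 11, a log2 fold change of 3.59 ± 0.25 (SE; adjusted p = 1.46e-15). Here and below adjusted p come from edgeR's quasi-likelihood test on the summed counts with the mouse as a block, Benjamini-Hochberg adjusted over 10589 genes. Acr rose between stages 8 and 9 by 1.48 ± 0.29 (adjusted p = 0.000214) and between stages 9 and 10 by 0.99 ± 0.20 (adjusted p = 0.000167). From stage 10 to 11 the log2 difference was 0.41 ± 0.17 (adjusted p = 0.13), not called.

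The early level of Acr depended on the library. In mouse 3, plate 8 had 60.2 CPM at stage 1 and plate 10 had 19.9. At stage 11 they had 268 and 252. Acrbp likewise had 41.3 CPM on plate 8 and 11.1 on plate 10 at stage 1. The step of Acr into stage 9 differed too. On plate 8 Acr had 125 CPM (19 UMIs) at stage 8 and 139 at stage 9. On plate 10 it had 33.7 (11 UMIs) and 99.8. The step of mouse 3 was thus seen on plate 10 and hardly on plate 8. At stage 8, plate 8 was already above the other mice at stage 9. What set the early level of plate 8 was not tested. Without plate 8 the log2 fold change of Acr from stage 1 to 11 was 4.17, and without mouse 3 it was 4.27, both called.

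**Figure D1:**
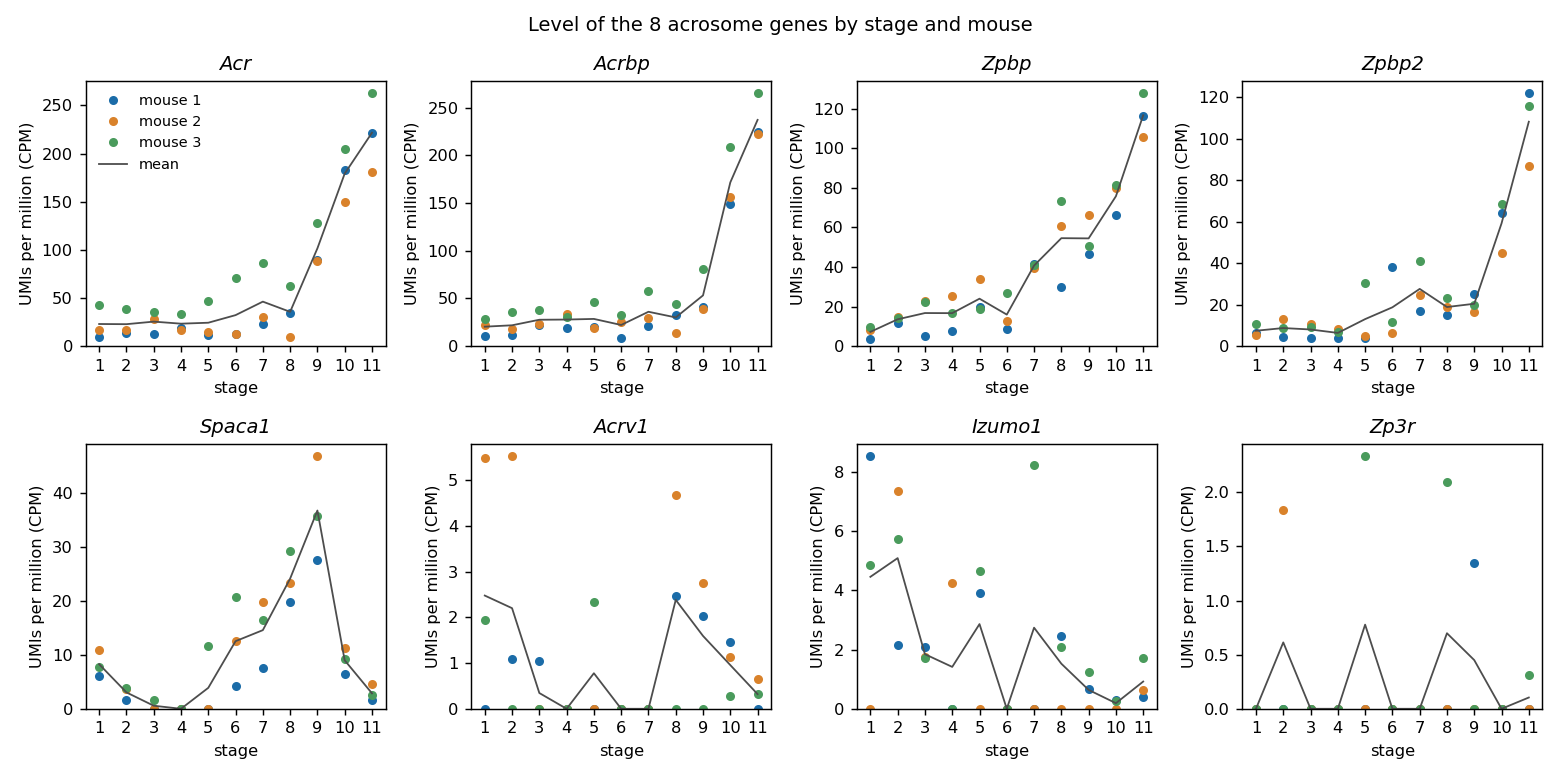
Level of each gene in CPM (vertical axes, each panel with its own scale from 0) over the 11 stages (horizontal), with 1 point per mouse and the mean as a line. Acr, Acrbp, Zpbp and Zpbp2 are highest at stage 11 in all 3 mice, Spaca1 at stage 9, and Acrv1, Izumo1 and Zp3r stay below 10 CPM.

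Acrbp (chromosome 6, 125049689 to 125063267, plus strand) encodes the protein that binds proacrosin and keeps it in the acrosomal matrix, so it is the partner of Acr. It had 11, 22.0 and 28.1 CPM at stage 1, 40.5, 38.6 and 80.4 at stage 9, 149, 156 and 209 at stage 10 and 224, 222 and 265 at stage 11. The jump came between stages 9 and 10, where the mice did not overlap. The mean rose from 20.3 ± 8.68 at stage 1 to 237 ± 24.2 CPM at stage 11 (log2 fold change 3.94 ± 0.21, adjusted p = 1.04e-18). By step, it rose by 0.81 ± 0.27 into stage 9 (adjusted p = 0.0229), by 1.83 ± 0.17 into stage 10 (adjusted p = 2.63e-10) and by 0.60 ± 0.14 into stage 11 (adjusted p = 0.00338). Relative to its own level at stage 11 in the same mouse, Acr had reached 45.8% ± 4.75 (SD, n = 3) at stage 9 and Acrbp 21.9% ± 7.29. The lowest Acr value, 40.3%, was above the highest Acrbp value, 30.3%. GENCODE draws Gm44597 on the same strand and the antisense gene 4930557K07Rik over Acrbp. The strand used in counting is not given in the sources used here, so reads of these genes cannot be told apart from those of Acrbp.

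Zpbp (chromosome 11, 11279626 to 11462408, minus strand) encodes a zona pellucida binding protein of the acrosomal matrix. It had 3.65, 8.24 and 9.68 CPM at stage 1, 41.5, 39.6 and 41.0 at stage 7, 46.6, 66.1 and 50.7 at stage 9 and 116, 106 and 128 at stage 11. All mice at stage 7 were above all mice at stages 1 to 6. The mean went from 7.19 ± 3.15 to 117 ± 11 CPM, a log2 fold change of 4.33 ± 0.28 (adjusted p = 3.88e-16). Zpbp was called higher than stage 1 at stage 3 (1.15 ± 0.41, adjusted p = 0.0225) and not at stage 4 (1.05 ± 0.54, adjusted p = 0.128), and was called at every stage from 5 on. Its steps were 1.23 ± 0.44 into stage 7 (adjusted p = 0.045), 0.64 ± 0.20 into stage 10 (adjusted p = 0.0143) and 0.76 ± 0.16 into stage 11 (adjusted p = 0.00202). Zpbp stood at 46.7% ± 18.4 of its stage 11 level at stage 8, where Acr was at 14.9% ± 9.40 and Acrbp at 12.4% ± 5.40. Its lowest mouse there, 25.5%, was above the highest mouse of Acr, 23.9%, and of Acrbp, 16.6%. GENCODE overlaps Zpbp on the other strand with Spata48, listed in the UMI table as 4930415F15Rik. That row held at most 2.70 ± 2.44 CPM at any stage (stage 9), and 0.39 ± 0.39 at stage 11.

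Zpbp2 (chromosome 11, 98551097 to 98558665, plus strand) encodes the paralog of Zpbp, with a like place in the acrosome. It had 6.08, 5.49 and 10.6 CPM at stage 1, 25.0, 16.5 and 19.8 at stage 9, 64.1, 44.9 and 68.5 at stage 10 and 122, 87.1 and 116 at stage 11. The mice of stage 9, 10 and 11 formed 3 groups without overlap. Its mean of 7.41 ± 2.82 CPM became 108 ± 18.6, a log2 fold change of 4.11 ± 0.32 (adjusted p = 4.77e-14). The change was concentrated in the last steps, with 1.61 ± 0.27 into stage 10 (adjusted p = 1.50e-05) and 0.97 ± 0.20 into stage 11 (adjusted p = 0.00101). At stage 8 Zpbp2 stood at 17.8% ± 4.99 of its stage 11 level, and each mouse was below the same mouse's value for Zpbp. Both paralogs ended near the same level, but Zpbp came up over more stages.

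**Figure D2:**
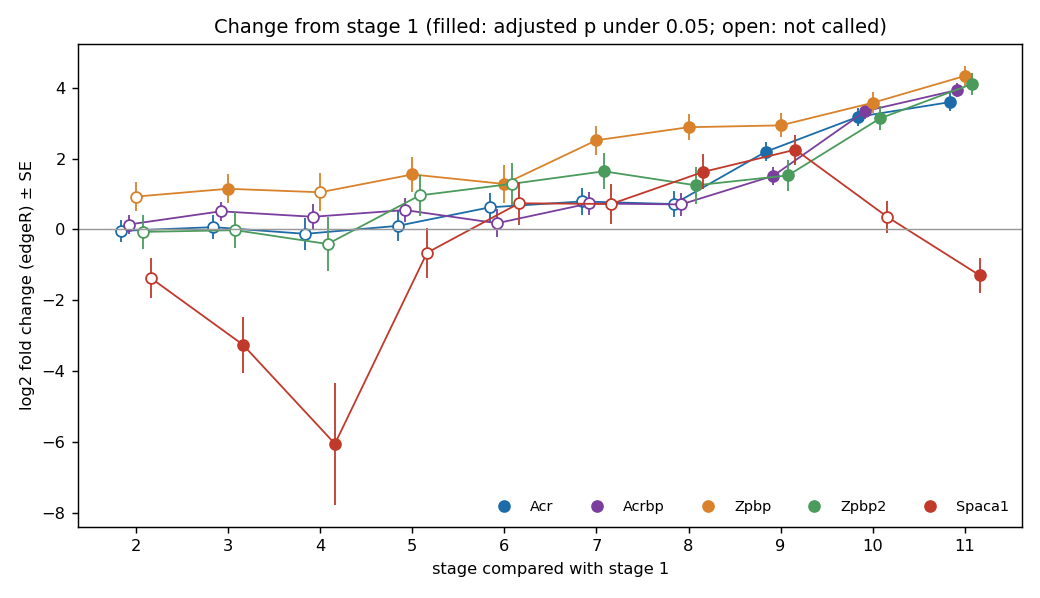
Log2 fold change of each stage against stage 1 with its SE (vertical), by stage (horizontal), for the 5 genes that passed the filter on low counts; filled points have an adjusted p under 0.05. Zpbp is called from stage 5 on, Acr and Acrbp from stage 9, and Spaca1 is at 2.25 at stage 9 and at -1.29 at stage 11. The Spaca1 point of stage 4 rests on 0 UMIs, so its size depends on the prior count of the fit.

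By the rule that every later stage must also be called higher than stage 1, the onset was stage 5 for Zpbp, stage 7 for Zpbp2 and stage 9 for Acr and for Acrbp. Spaca1 had no onset by this rule. The exact stage depended on the processing. Over 14 alternatives Zpbp moved to stage 7 in 10, Zpbp2 lay between stages 6 and 10, and Acr and Acrbp between 7 and 9. Without plate 8 of mouse 3 the onsets were stage 7 for Zpbp and Acr, 6 for Zpbp2 and 8 for Acrbp. With 15 finer stages they were 6 for Zpbp, 10 for Acr and 11 for Zpbp2 and Acrbp, which again put Zpbp first. Finer stage 10 was leptotene and zygotene-like and finer stage 11 pachytene-like. Acr had 64.1 ± 29.8 CPM (SD, n = 3) in the first of these and 133 ± 9.55 in the second. Zpbp came before the other 3 genes in 10 of the 14 alternatives and was level with Zpbp2 in 3, and without plate 8 Zpbp2 came first. Without the cells rich in protamine RNA, Zpbp stayed at stage 5, Zpbp2 was at 6, Acr at 7 and Acrbp at 9. Among the 11 ordered stages, the peak of these 4 genes was the last stage in each of the 3 mice. The cluster of 30 cells outside this order had higher levels, as given below. Stage 11 is thus the end of the order, and a later maximum is not excluded.

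Of the 5 genes that passed the filter, 4 were called higher at stage 11 than at stage 1, against 37.2% of all genes tested, and 1 lower, against 39.3%. The size of the rise, not its call, moved with the scaling. From reads the log2 fold changes of Acr, Acrbp, Zpbp and Zpbp2 were 5.61, 5.14, 5.21 and 4.32, and with ERCC library sizes 5.02, 5.31, 5.70 and 5.48. The median log2 fold change was 3.94 for these 5 and -0.06 for all genes. Zpbp had 16 and Zpbp2 18 UMIs over the mice at stage 1, against 1579 and 1502 at stage 11, so they passed the filter through the late stages, and the 3 scarce members are in neither the count nor the median. Count and median are thus a description and no support. Against stage 1, the 5 members tested gave 1 call of higher at stages 3 (19.9% of all genes), 5 (22.6%) and 6 (23.7%), while stage 7 gave 2 (24.4%), stage 8 gave 3 (24.4%), stage 9 gave 5 (30.2%) and stage 10 gave 4 (35%). Calls of lower were 1 at stage 3 (21.6% of all genes) and 1 at stage 4 (20.8%), both of Spaca1. Between successive stages no member was called up to stage 6, where 1.56% to 13.5% of all genes were called higher and 2.38% to 14.1% lower, and between stages 6 and 7 only Zpbp, against 8.17% of genes higher there. Into stage 9 the genes called higher were Acr and Acrbp (15.1% of all genes), and into stage 10 Acr, Acrbp, Zpbp and Zpbp2 (18.6% of all genes). Into stage 11 they were Acrbp, Zpbp and Zpbp2 (6.21% of all genes). Spaca1 was the member called lower into stage 10 (9.8% of all genes) and into stage 11 (2.93%).

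Spaca1 (chromosome 4, 34024874 to 34050191, minus strand) encodes a membrane protein of the acrosome needed to shape it. Its course differed from the rest. It had 6.08, 11 and 7.74 CPM at stage 1, a single mouse with UMIs at stage 3 (1.70 CPM) and none in 74 cells at stage 4, which allows a share of up to 4.05% of cells with a UMI. It then had 19.8, 23.4 and 29.3 CPM at stage 8, and 27.7, 46.8 and 35.9 at stage 9, its peak in 3 of 3 mice. At stage 10 it had 6.47, 11.2 and 9.28 CPM and at stage 11 1.56, 4.55 and 2.50. Spaca1 was thus highest 2 stages before Acr, Acrbp, Zpbp and Zpbp2 were, and the mice of stage 9 overlapped neither those of stage 10 nor those of stage 11. Against stage 1 it was higher at stage 8 (log2 fold change 1.62 ± 0.49, adjusted p = 0.00512) and at stage 9 (2.25 ± 0.43, adjusted p = 2.07e-05). It was lower at stage 3 (-3.25 ± 0.79, adjusted p = 0.00112), and at stage 4 (adjusted p = 0.00565), where no UMI was seen.

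After its peak Spaca1 fell by 1.90 ± 0.35 on the log2 scale into stage 10 (adjusted p = 7.23e-05) and by 1.64 ± 0.39 into stage 11 (adjusted p = 0.00546). In a fit without the mouse block these 2 steps had adjusted p of 0.0652 and 0.62, and from reads in place of UMIs 0.227 and 0.842, with the same direction. Without mouse 3 the step into stage 11 had an adjusted p of 0.0931. The rise to stage 9 was called under all 14 alternatives. The difference between stages 11 and 1 was small (-1.29 ± 0.50, adjusted p = 0.0188) and lost its call or turned under 10 of 20 alternatives. Scaled to the ERCC spike-in molecules added to each well, it was 0.02 (adjusted p = 0.967). Per 1000 ERCC UMIs the mean of Spaca1 over stages 9, 10 and 11 was 2.66, 1.30 and 0.54 UMIs, and that of Acr 7.80, 29.6 and 50.2. Spaca1 thus declined on this scale too while Acr climbed. Set against Acr, Spaca1 had 32.6 UMIs per 100 Acr UMIs at stage 9 and 1.00 at stage 11.

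Seen cell by cell, Acr gave a UMI in 32 of 73 cells at stage 1, 70 of 102 at stage 9, 132 of 134 at stage 10 and 146 of 149 at stage 11. The median depth of a cell went from 26884 UMIs at stage 1 and 6709.5 at stage 8 to 75963 at stage 11, so cells were thinned to 2000 UMIs each, which left out 17 cells. After thinning, Acr was seen in 8.52% ± 5.83 of cells (SD, n = 3) at stage 1. The share of stage 8 was 6.64% ± 2.64, that of stage 9 23.7% ± 9.62, that of stage 10 41.6% ± 9.56 and that of stage 11 34.7% ± 6.74. Each mouse had a lower thinned share at stage 11 than at stage 10 but a higher CPM, so no order of these 2 stages is read from the shares. Acrbp was at 2.40% ± 2.15 at stage 1 and 35.3% ± 18.5 at stage 11. Spaca1 was seen in 3.09% ± 3.13 of thinned cells of stage 1, in 10.3% ± 2.34 of stage 9 and in 0.55% ± 0.95 of stage 11. The share at stage 1, in spermatogonia, is the background against which the late shares stand, and for Acr, Acrbp, Zpbp and Zpbp2 all mice of stage 11 lay above all mice of stage 1. The percentage of all genes with such a separation is not given here, so it is a description.

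**Figure D3:**
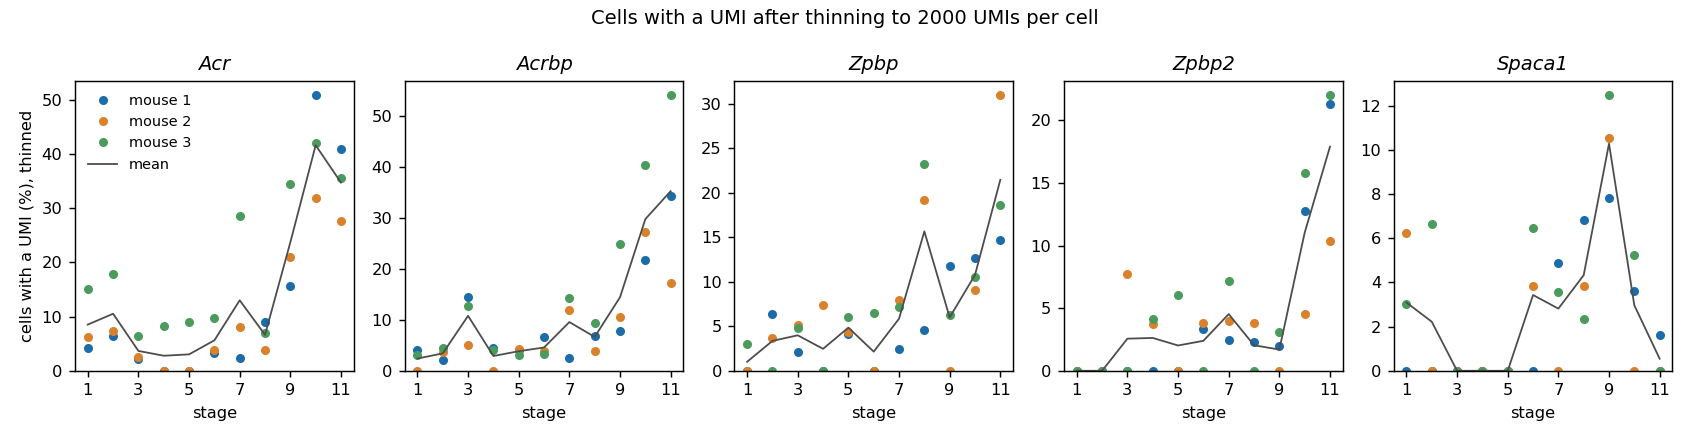
Percent of cells with at least 1 UMI of Acr, Acrbp, Zpbp, Zpbp2 or Spaca1 after thinning every cell to 2000 UMIs (vertical, from 0, each panel with its own scale) over the 11 stages (horizontal), with 1 point per mouse and the mean as a line. Spaca1 has its highest share at stage 9, when 10.3% of cells hold a UMI, Acr at stage 10, and Acrbp, Zpbp and Zpbp2 at stage 11.

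Late cells often held several of the genes. At stage 9, 21 of 102 cells held a UMI of each of Acr, Acrbp, Zpbp and Zpbp2, at stage 10 108 of 134, and at stage 11 139 of 149. The median depth of a cell was 21400, 53572 and 75963 UMIs at these stages, and its part in the counts was not tested. At stage 9, 37 of the 47 cells with Spaca1 also had Acr (78.7%), against 60.0% of the cells without it. The cells with Spaca1 had a median of 31175 UMIs and the rest 13984, and the part of this depth gap was not tested. At stage 11, 22 of 149 cells still held Spaca1, all of them with Acr.

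Acrv1 (chromosome 9, 36693220 to 36698843, plus strand), the acrosomal vesicle protein also called SP-10, Zp3r (chromosome 1, 130576713 to 130629621, minus strand), the matrix protein sp56, and Izumo1 (chromosome 7, 45621811 to 45628823, plus strand), the sperm protein that binds the egg receptor Juno, did not pass the filter on low counts and were not tested. Zp3r had 2 UMIs in 149 cells at stage 11 and none at stages 1, 3, 4, 6, 7 and 10. Acrv1 had 3 UMIs at stage 11 and 4 at stage 1. Izumo1 had 14 UMIs at stage 11, 11 of them in mouse 3, with a single stage cell holding up to 7, and 12 at stage 1. Its mean was 0.92 ± 0.70 CPM at stage 11 and 4.45 ± 4.27 at stage 1. Pooled over the mice, Izumo1 had 5.41 CPM at stage 1 (exact 95% Poisson interval 2.79 to 9.45, counting error only) and 1.07 at stage 11 (0.585 to 1.80), so that no rise was seen. The upper bound at stage 11, on 13078148 UMIs, was 0.670 CPM for Acrv1 and 0.552 for Zp3r. GENCODE draws Rasip1 over Izumo1 on the same strand, so reads there may be shared. Rasip1 had 44.7 ± 4.64 CPM at stage 1 and 0.70 ± 1.08 at stage 11, lower at the late stage like Izumo1, and its part in the Izumo1 counts was not tested.

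The cluster of 30 cells led by protamine genes, which took no part in the tests, held 8, 9 and 13 cells of mice 1, 2 and 3. Its cells were unlike each other, since protamine and transition protein UMIs made up a median of 0.00345% of a cell's UMIs and more than 1% in 4 of the 30. Acr stood at 304 ± 49.3 CPM there (SD, n = 3), Acrbp at 413 ± 43.8, Zpbp at 191 ± 26.9 and Zpbp2 at 258 ± 58.1. For each of these genes every mouse was above every mouse of stage 11, a description given without the percentage of all genes for which this held. In the 26 cells with at most 1% the pooled levels were 329 CPM for Acr, 443 for Acrbp, 204 for Zpbp and 282 for Zpbp2. The high levels of the cluster thus came from these cells, and its name from few others. In the 4 protamine-rich cells the pooled levels were lower. Acr had 92.9 CPM there (7 UMIs, exact 95% Poisson interval 37.3 to 191, counting error only). Acrbp had 26.5 (2 UMIs, 3.21 to 95.9).

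Within that cluster, 3 cells, 1 of each mouse, held a UMI of all 8 genes. They were the only such cells among the 1448 and were looked at after their values were seen. The cell of mouse 1 had 4 UMIs of Acrv1, 3 of Zp3r, 2 of Izumo1 and 7 of Spaca1, the cell of mouse 2 had 13, 12, 7 and 19, and that of mouse 3 had 11, 1, 6 and 11, among 63913, 50421 and 150965 UMIs in all. These cells thus held all 37 Spaca1 UMIs of the cluster, and 28 of its 31 Acrv1 UMIs, 16 of its 18 Zp3r UMIs and 15 of its 17 Izumo1 UMIs. In the other 27 cells Spaca1 had no UMI in 2003617, while Acr had 620. The 3 cells carried 0, 1 and 1 UMIs of Prm1, and 11, 6 and 10 of Tssk1, a kinase gene of spermatids. They also carried 53, 16 and 10 UMIs of Ccna1, which is among the pachytene markers. Whether they were late spermatocytes or spermatids was not tested. The highest counts of Acrv1 and Zp3r in any cell of the 11 stages were 4 and 2 UMIs, and that of Spaca1 was 6. For Izumo1 it was 7, as many as in the highest of the 3 cells.

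**Figure D4:**
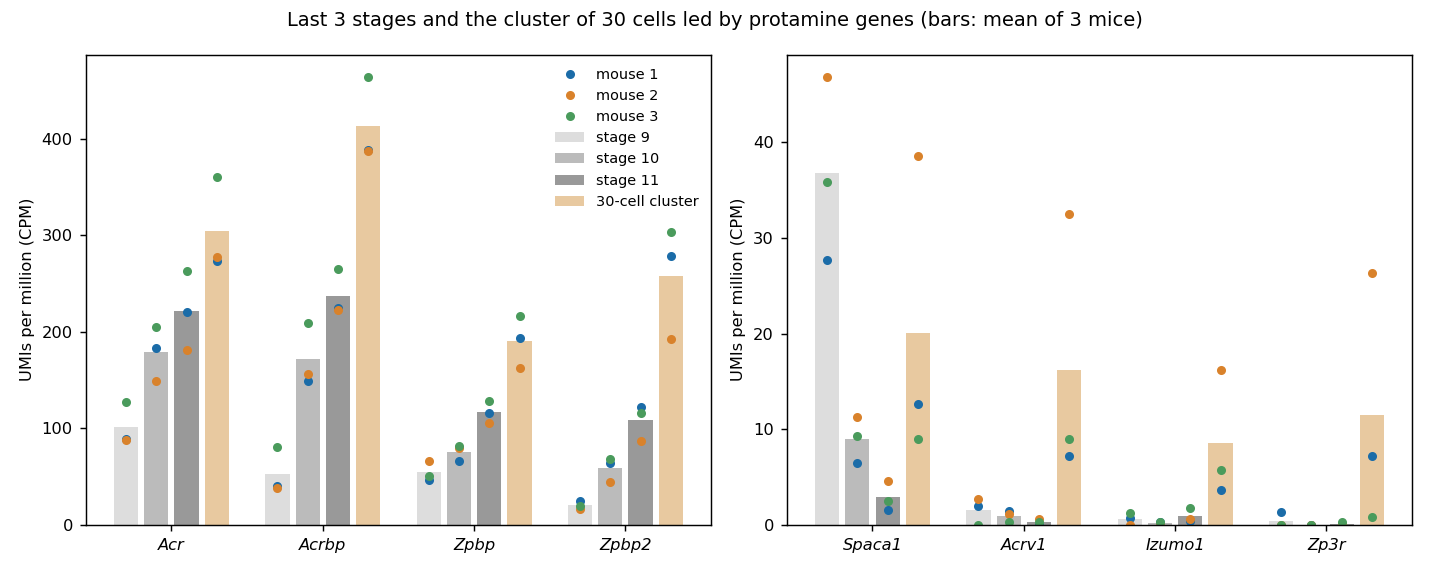
Level in CPM (vertical, from 0) at stages 9, 10 and 11 and in the 30-cell cluster, as the mean of 3 mice (bars) and each mouse (points), with the 4 abundant genes on the left and the other 4 on the right on a smaller scale. Acr, Acrbp, Zpbp and Zpbp2 are higher in the cluster than at stage 11 in each mouse; Acrv1, Izumo1 and Zp3r are near 0 at the stages.

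Other acrosome genes were read from lists. Of 18 genes of acrosomal matrix enzymes and their partners, 6 passed the filter and all 6 were called higher at stage 11 than at stage 1, against 37.2% of all genes tested, with a median log2 fold change of 4.67. The largest were Dkkl1 (5.25 ± 0.22, adjusted p = 4.25e-21), an acrosomal protein related to Dickkopf, Crisp2 (4.85 ± 0.26, adjusted p = 1.18e-18), a cysteine-rich secretory protein, and Arsa (4.83 ± 0.53, adjusted p = 2.04e-10), arylsulfatase A. Crisp2 went from 56.6 ± 37.2 to 1242 ± 225 CPM, the most abundant of them. The other 12 genes of the list, Spam1 among them, did not reach the filter. Genes that pass only through a high late stage had to differ, so the count of those tested is no support for the list.

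Of 20 acrosomal membrane and fertilization genes, 15 were in the table, 3 passed the filter and 3 were called higher, against 37.2% of all genes: Izumo4 (4.31 ± 0.38, adjusted p = 1.24e-12), Ly6k (3.89 ± 0.22, adjusted p = 1.06e-17) and Enkur (1.62 ± 0.24, adjusted p = 2.21e-07). Ly6k, a surface protein that sperm need to pass the oviduct, had its highest mean at stage 9 like Spaca1, with 1040 ± 125 CPM against 443 ± 47.1 at stage 11. Of 20 genes of acrosome biogenesis and vesicle traffic, 14 passed, 12 were called higher (37.2% of all genes), none lower (39.3%), and Vps54 and Vps13b were not called. Dpy19l2 (5.75 ± 0.35, adjusted p = 3.85e-17), which anchors the acrosome to the nucleus, went from 2.10 ± 1.96 to 120 ± 4.77 CPM. Actl9 (5.0 ± 0.61, adjusted p = 2.77e-09) and Spata16 (4.14 ± 0.26, adjusted p = 7.50e-17), a Golgi protein of acrosome assembly, followed. The median over the 14 was 1.65. Izumo4, with 4.58 ± 1.86 CPM at stage 1, and Actl9, with 0.73 ± 0.64, passed the filter through later stages. The counts of both lists are thus a description and no support, as for the matrix list.

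**Figure D5:**
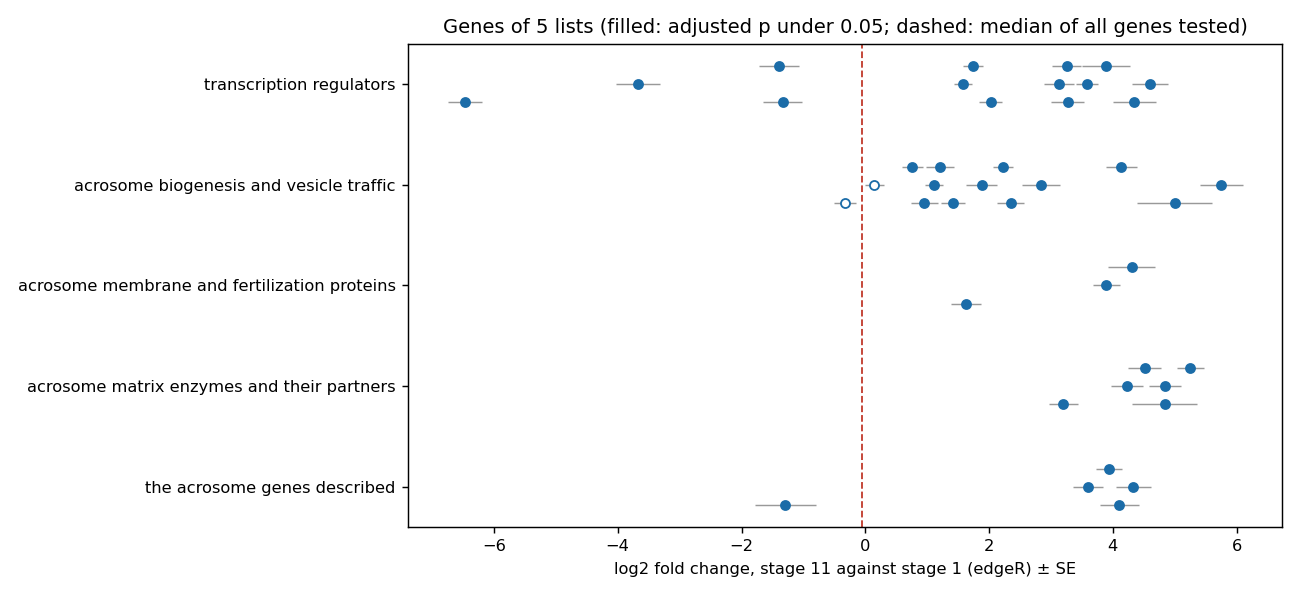
Log2 fold change of stage 11 against stage 1 with its SE (horizontal) for each gene tested of 5 lists (rows), with filled points for an adjusted p under 0.05 and a dashed line at the median of all 10589 genes, -0.06. All 6 matrix genes and all 3 membrane genes lie right of the line, and the regulators fall on both sides.

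Of 16 transcription regulators of meiotic and spermatid genes, 14 passed the filter, 10 were called higher, against 37.2% of all genes, and 4 lower, against 39.3%, at stage 11. Gtf2a1l (4.6 ± 0.29, adjusted p = 1.27e-16), a germ cell form of a general factor, Rfx4 (4.35 ± 0.35, adjusted p = 7.84e-14) and Mybl1 (3.89 ± 0.39, adjusted p = 2.82e-11), the meiotic MYB protein, rose the most. Mybl1 had its highest mean at stage 6, 80.6 ± 34.3 CPM. It had 68.2 ± 22.5 at stage 9 and 59.1 ± 29.4 at stage 11, within that spread, so its peak stage was not resolved. A part of Mybl1 in the jumps of Acr and Acrbp was not tested. Taf7l (-6.46 ± 0.28, adjusted p = 6.16e-21), which is X-linked, fell the most, followed by Rfx1 (-3.68 ± 0.36, adjusted p = 1.45e-11) and Crtc1 (-1.40 ± 0.33, adjusted p = 0.000233). These are levels of mRNA and say nothing of binding. Mybl1 and Rfx4 were scarce at stage 1, with 5.01 ± 3.15 and 6.36 ± 2.06 CPM, so the count is a description for this list too.

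Across the 33 sums of mouse and stage, on log2(CPM + 1), the course of Acr was most like that of Acrbp among the other members (Pearson r = 0.930). The sums share mice and depth, so r is a description. Acr with Zpbp, Acr with Zpbp2 and Zpbp with Zpbp2 had r of 0.772, 0.810 and 0.773. Spaca1 had r from 0.164 with Acrbp to 0.367 with Zpbp2. Among all other genes tested, the likest were 1700006A11Rik (0.95), Tspyl4 (0.947) and Fbxw5 (0.940) for Acr, Ldhc (0.941), Slc2a3 (0.939) and 4930525D18Rik (0.934) for Acrbp, and Ppp1r11 (0.957), Gkap1 (0.943) and Spesp1 (0.938) for Zpbp. For Zpbp2 they were Shcbp1l (0.899), Acyp1 (0.893) and 9330102E08Rik (0.888). The genes likest to Spaca1 were 1700029J07Rik (0.852), Thada (0.836) and Cops8 (0.830). The first of them, 1700029J07Rik, had 28.9 ± 11.9 CPM in stage 1, 89.9 ± 0.95 in stage 9 and 11.6 ± 1.63 in stage 11.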

How the data were processed

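Single cells of 3 mice were measured by SORT-Seq. Per the submitters' processing notes, reads were mapped with BWA 0.7.10 to mm10 (GRCm38); the annotation and the strand used in counting are not given in the sources used here. The authors deposited UMI counts per gene and well, used here, read counts, and a table of transcripts, which holds estimated counts and was rounded to whole numbers for an alternative. The columns of mouse 1 do not separate its 8 libraries. The members and gene lists were chosen with earlier results of these data known.

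Total UMIs leave out ERCC, mitochondrial genes, eGFP and Rn45s. Total UMIs were 16682671, 5866174 and 18032562 in mice 1, 2 and 3, and sums of mouse and stage held 157936 to 6399830. Stages came from 1500 variable genes of odd-numbered autosomes (scaled to 10000 UMIs, Seurat 5.3.0 anchors across mice, 15 dimensions, scanpy 1.11.5, 15 principal components, 15 neighbours, Leiden resolution 1.0 in igraph) and were ordered by diffusion pseudotime. The igraph implementation and the rule leaving out low-depth clusters were chosen after clusters were seen. A stage needed at least 10 cells in each of at least 2 mice. Wells hold 1 sorted cell, so no doublets were removed. Counts were summed per mouse and stage and tested with edgeR 4.0.16 (R 4.3.3; TMM, filterByExpr, glmQLFit, glmQLFTest, mouse as block, threshold 0.05); DESeq2 1.42.0 was an alternative. Same-mouse sums deviated together (r from 0.326 to 0.961 between stages, median 0.636). The pairing in the design is by animal. Protocol and libraries go with the animal, so their parts in this shared deviation cannot be told apart. Tested on simulated data for stage 11 against stage 1 over 9256 genes, 4-fold rises were recovered in 100% and 2-fold rises in 90% of 50 genes each. Falls were recovered less often, 4-fold falls in 98% of 50 genes and 2-fold falls in 77.6% of 49. All genes changed in the simulation had more UMIs than Spaca1, which had 268 over the stages. No mouse effect was simulated. These rates therefore do not give the recovery for Spaca1. Named genes are the 8 members, up to 3 called genes per list with the largest rise and fall, and the 3 genes most correlated with each member. Intervals and limits cover counting error only.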

Additional observations from a re-analysis of the deposited data

Results flagged for a closer look

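Signal of 5 of the genes appeared in cells that no comparison used, the 227 cells of the 3 low-depth clusters, above the limit of 2.82 CPM that a count of 3 UMIs allows there. The pooled level was 163.6 CPM for Acr, 134.4 for Acrbp, 53.58 for Zpbp2, 49.82 for Zpbp and 9.40 for Spaca1, on 174, 143, 57, 53 and 10 UMIs. Acrv1 had 1 UMI and Zp3r and Izumo1 none. These levels lie between those of stages 9 and 11 for Acr and Acrbp. Wells under 1000 UMIs, which hold fewer molecules, had 156 CPM for Acr on 28 UMIs and 167 for Acrbp on 30.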

How the results depend on the processing

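Acr, Acrbp, Zpbp and Zpbp2 kept a call of higher, latest stage against earliest, under all 20 alternatives, with log2 fold changes from 2.87 to 5.61, 3.39 to 5.31, 3.71 to 5.70 and 3.44 to 5.48. Their peak stage and that of Spaca1 did not move under the 9 alternatives run for it. ERCC scaling moves the median of all genes to 1.27 and median-ratio factors to -0.26. The 1 member called lower, Spaca1, was not called (0 members lower) with ERCC library sizes (log2 fold change 0.0244), read counts, sums of at least 20 cells, even-numbered autosomes, Leiden resolution 0.6, no alignment or the leidenalg optimizer, and 2 members were called lower without a filter. Leaving out a mouse gave 0 to 1. Between successive stages there were 10 higher and 2 lower calls. These became 6 and 0 from reads, and lower calls became 4 with ERCC sizes. Leaving out a mouse gave 6 to 10 higher and 1 to 2 lower calls. Without the replicate block, which the pairing by animal supplies, there were 2 higher and 0 lower successive calls and 0 members lower at the latest stage; it ended no call of a rise at the latest stage. Unthinned, the shares of cells at the latest stage were 98.3% for Acr, 98.9% for Acrbp, 95.5% for Zpbp, 96.1% for Zpbp2, 15.8% for Spaca1, 4.50% for Izumo1, 2.28% for Acrv1 and 1.13% for Zp3r. The leidenalg optimizer, Leiden resolution 1.6 and the run without cells rich in protamine RNA were chosen after seeing the data. The cause of these shifts was not tested. Depth limits stages 4 to 8 most, where a count of 3 UMIs over the mice corresponds to 2.74 to 4.10 CPM, against 0.229 at stage 11.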
